A study of Citrus unshiu with 2 samples.

Results

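Expression of 132 protein kinase genes was measured in stems of satsuma mandarin (Citrus unshiu). They were chosen from the 2568 genes that the authors annotated, out of 23159 genes measured, by the words "Protein kinase domain" or "Protein tyrosine kinase" in the Pfam protein family description. Of these 132, 59 carry the word receptor in a gene or domain description and are called receptor-like here. The other 73 are called other kinases. The text does not make these cytosolic, since 32 of the 73 have an extracellular Pfam domain beside the kinase domain and 41 have none. No gene name was given for 57 of the 132, which are named here by identifier. The name of the annotated table calls its genes differential, so these 132 are a selected share of the kinases of the genome. Coordinates are as the files give them, on a genome build not given in the sources used here.

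Protein kinases pass signals on by moving phosphate onto other proteins. In plants the largest kinase group is the receptor-like kinases, which carry a sensing domain outside the cell, a membrane span and a kinase domain inside. The outer domain (leucine-rich repeats, lectin, wall-associated or cysteine-rich domains) binds peptides, sugars or wall fragments, and soluble kinases such as receptor-like cytoplasmic, calcium-dependent and CBL-interacting kinases carry the signal further. Such kinases are known from model plants for roles in growth, wall sensing, defence and responses to water shortage.

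Trees labelled WT were grown under a rain cover in root-limiting containers, with 20 trees chosen for each arm of an experiment of 5 months. The control library came from mature stems of shoots on normally watered trees. The light drought library came from the same tissue of trees whose soil had been left to dry to a set moisture for 75 days, and both are labelled Day 75. Each arm has 1 RNA-seq library, and how many trees went into it is not given in the labels. No difference below therefore has a replicate check, no p-value was computed, and differences between trees or sampling times cannot be told apart from the treatment.

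Gene reads totalled 32856618 in the control and 31760704 in light drought. Values are RPKM, which scales reads to gene length and to library size. Differences are log2((light drought + 0.5)/(control + 0.5)) on RPKM, written log2 ratio below, which understates the change of low genes. A counting interval is the exact 95% Clopper-Pearson range for the log2 quotient of RPKM, taken from the reads without the added 0.5, and it covers counting error only. The 2-fold rule asks for 2-fold or more on the log2 ratio, among genes with an RPKM of at least 1 in either library. In these bulk samples fewer cells of a type and less RNA per cell cannot be told apart.

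The kinase genes were weakly expressed and more of them were lower than higher in light drought. The median kinase had 74 reads in the control and 60.5 in light drought, and an RPKM of 0.981 and 0.861, against 2.68 and 2.26 over the annotated table. An RPKM of 1 in either library was reached by 73 of the 132 (55.3%), against 80.0% of the annotated table and 67.6% of all genes. Reads of all 132 together made up 0.0838% of the control library and 0.0671% of the light drought library. Of the 73 kinases over the minimum, 51 had log2 ratios below 0 and 22 above 0. That is 30.1% above 0, against 43.6% of the 2055 such genes in the annotated table and 50.4% of all 15654 such genes. Their median log2 ratio was -0.44, against -0.23 in the annotated table and 0.0024 over all genes. Without the minimum, the median over all 132 kinases was -0.23, against -0.22 in the whole annotated table, so the gap between these medians is seen only among genes over the minimum. The shares above 0 still differed without the minimum, at 32.6% of the 132 kinases against 42.1% of the annotated table. The added 0.5 draws the log2 ratios of low genes towards 0.

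Of the 73 kinases over the minimum, 11 differed at least 2-fold, 9 lower and 2 higher in light drought. This is 15.1% of them, against 20.9% of the annotated table (5.99% higher and 14.9% lower) and 3.00% of all genes (0.882% higher and 2.12% lower), so at this threshold the kinases do not exceed the table they were drawn from. The counting interval lay away from 0 for 61 of the 73, or 83.6%, against 82.9% of the annotated table and 50.4% of all genes over the minimum. An interval away from 0 was therefore common at this depth. The count of 11 became 18 with 0.1 in place of the added 0.5, and 3 with 1.

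**Figure D1:**
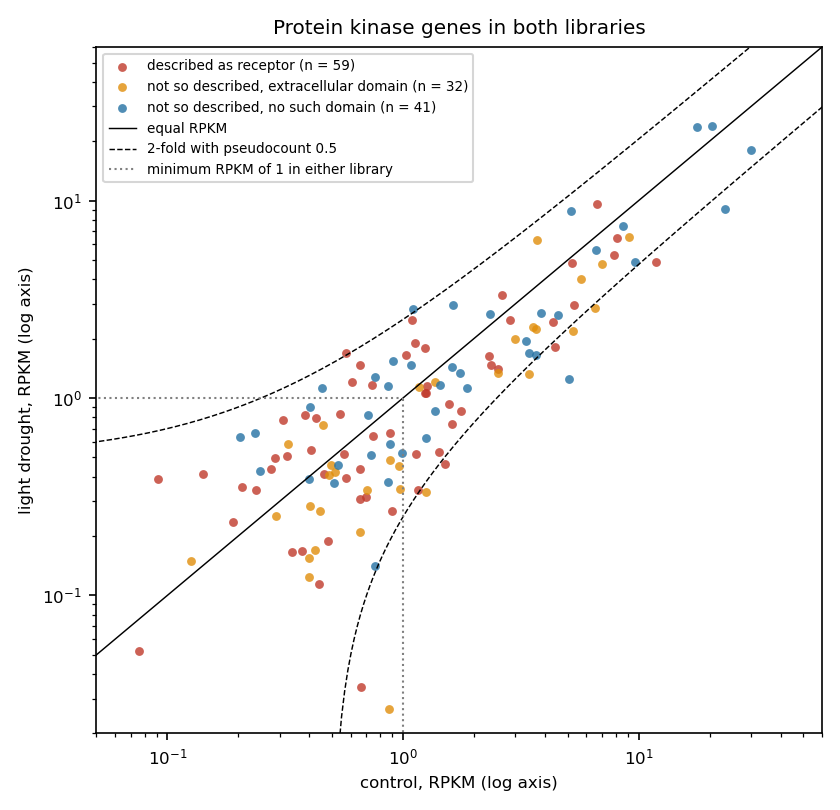
RPKM of the 132 kinase genes in the control (x) and light drought (y) library on log axes, 1 point per gene, coloured by the 3 descriptive classes. Most points lie under the line of equal RPKM, and 11 of those with an RPKM of at least 1 in either library lie beyond the dashed 2-fold curves.

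Receptor-like kinases had a median log2 ratio of -0.30 over 31 genes past the minimum, with quartiles of -0.72 and 0.41. Of these 31, 3 were at least 2-fold lower, 1 was at least 2-fold higher, and 21 lay below 0. Other kinases had a median of -0.45 over 42 genes, with quartiles of -0.71 and 0.21, and 6 were lower, 1 was higher and 30 lay below 0. Without the minimum the medians were -0.16 for all 59 receptor-like and -0.30 for all 73 other kinases. The order of these medians rests on how the classes are drawn. With classes taken from extracellular Pfam domains in place of the word receptor, the 36 kinases with such a domain had the lower median (-0.47) and those without had -0.30. Among the other kinases, those 14 with an extracellular domain had a median of -0.52, with 13 of 14 below 0, and those 28 with none had -0.22, with 17 below 0.

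**Figure D2:**
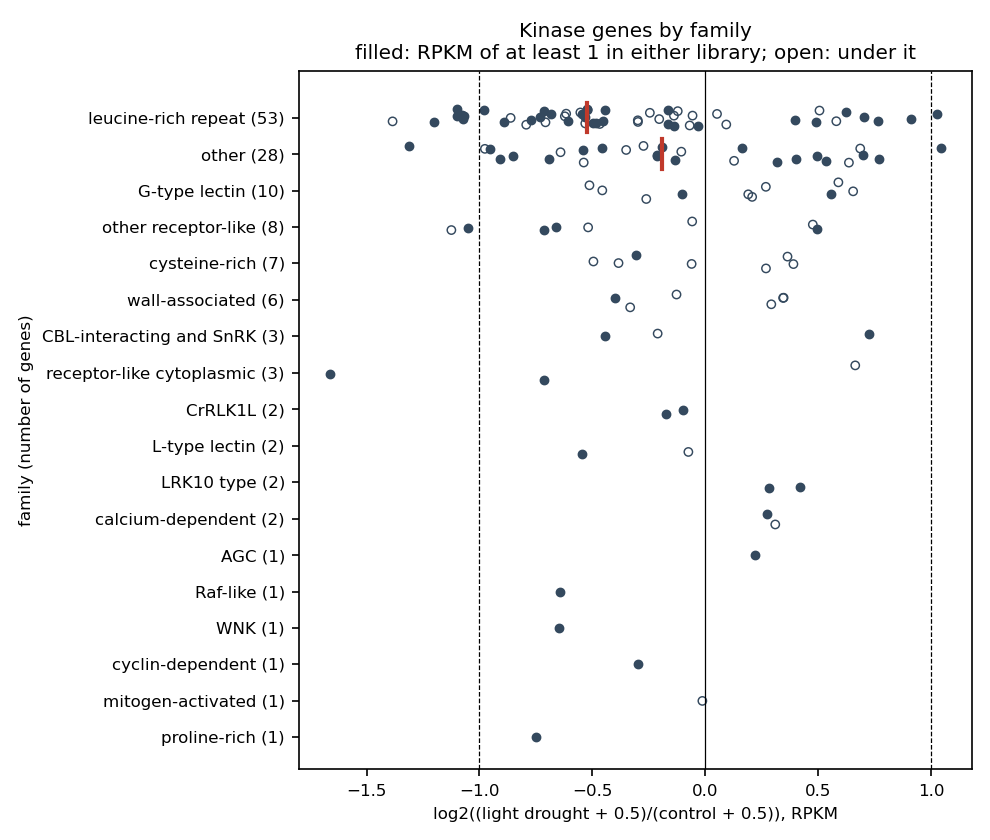
Log2 ratio of every kinase gene by family, filled for genes with an RPKM of at least 1 in either library and open for genes under it. Red bars are medians over filled points, drawn for families with at least 5 of them, at -0.52 for leucine-rich repeat kinases and -0.19 for the unclassed group, and dashed lines mark 2-fold.

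Leucine-rich repeat kinases made up 53 of the 132, and 31 of these passed the minimum. This family includes receptors of peptide hormones and of microbial peptides in other plants. Of the 31, 24 had log2 ratios below 0, 6 were at least 2-fold lower and 1 at least 2-fold higher, with a median of -0.52. The 7 that were 2-fold apart are 22.6% of the 31, near the 20.9% of the annotated table. Over all 53, including the 22 under the minimum, 42 lay below 0.

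The lowest ratio among receptor-like kinases over the minimum was that of Cs2g13060, described as ZAR1, a leucine-rich repeat kinase known in Arabidopsis from the first division of the zygote. It lies on chromosome 2 at 9798272 to 9801245 and stood at RPKM 11.9 in the control and 4.88 in light drought. These values rest on 1112 and 442 reads, and the log2 ratio was -1.20 with a counting interval from -1.44 to -1.12. It was also the receptor-like kinase with the highest mean level. Cs6g17360 (chromosome 6, 17863598 to 17866854), described as the probable inactive receptor kinase RLK902, stood at 4.40 in the control and 1.82 in light drought (-1.08, counting interval -1.56 to -0.99). TMK4 (orange1.1t01865, unplaced), of a family known for auxin signalling in Arabidopsis, stood at 1.16 and 0.344. Its log2 ratio of -0.98 was just under 2-fold on this scale, with a counting interval from -2.34 to -1.21. Cs8g05040, like At4g34220, stood at 1.61 and 0.739 (-0.77).

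Cs5g34700, described as the kinase-like protein TMKL1, is a leucine-rich repeat member without the word receptor (chromosome 5, 35437438 to 35442594). It stood at RPKM 6.55 in the control and 2.85 in light drought (log2 ratio -1.07, counting interval -1.39 to -1.01). Its exons share bases with those of another gene model, as do those of Cs6g13110, and whether the counting used strand is not stated. Cs6g13110 has no name and stood at 5.28 and 2.20 (-1.10), Cs2g05510 at 3.42 and 1.33 (-1.10), and Cs3g23200 at 1.25 and 0.332 from 97 and 25 reads (-1.07). All 4 have leucine-rich repeats and were lower in light drought.

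Several of the lower kinases are described as inactive, that is, as carrying a kinase domain held not to transfer phosphate. This group was picked after its values had been seen. Of the 7 genes with such a description, 6 had log2 ratios below 0, with RLK902 as the lowest. Most of the 7 are leucine-rich repeat kinases, of which 42 of 53 lay below 0, as did 89 of all 132 kinases. The count of 6 therefore does not set this group apart from that family. At5g58300-like Cs7g29420 stood at RPKM 1.42 in the control and 0.534 in light drought (-0.89). At3g28040-like orange1.1t04113 stood at 1.76 and 0.860 (-0.73). The exception was BIR2 (Cs6g20340, chromosome 6, 19882940 to 19885256), known in Arabidopsis as a partner that holds back the co-receptor BAK1. It stood at RPKM 0.657 and 1.47 in that order, a log2 ratio of 0.77 with a counting interval from 0.66 to 1.67.

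Kinases described as MDIS1-INTERACTING RECEPTOR LIKE KINASE 2 (MIK2), known in Arabidopsis from peptide and wall sensing, went the other way from most of the leucine-rich repeat family. All 4 genes of this description had log2 ratios above 0, a group picked after its values had been seen. Cs7g21480 (chromosome 7, 18846081 to 18847717) stood at RPKM 0.571 in the control and 1.68 in light drought, from 27 and 77 reads. Its log2 ratio of 1.03, with a counting interval from 0.91 to 2.25, made it the only receptor-like kinase counted as at least 2-fold higher. Cs7g21400 stood at 0.606 and 1.20 (0.62), Cs7g21490 at 1.03 and 1.64 (0.49), and orange1.1t04412, under the minimum, at 0.384 and 0.822 (0.58). Close copies such as these can share reads, and the treatment of reads with several matches is not stated.

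Other leucine-rich repeat kinases with higher values were Cs3g24860 and Cs2g09650. Cs3g24860, described as a probable receptor-like kinase like At2g16250, stood at RPKM 1.09 in the control and 2.48 in light drought (log2 ratio 0.91, counting interval 0.90 to 1.48), and shares exon bases with another gene model. Cs2g09650, without a name, stood at 3.69 and 6.33 (0.70). Both stayed under 2-fold on the log2 ratio. Among those near or somewhat below 0 were HAIKU2 (Cs8g03240), a regulator of seed size in Arabidopsis, at 1.25 and 1.06 (-0.17), and FEI 2 (Cs5g04310), known in Arabidopsis from wall synthesis, at 7.84 and 5.30 (-0.52). SOBIR1 (Cs5g22260), a co-receptor of defence receptors, stood at 1.14 and 0.520 (-0.68).

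Receptor kinases of the lectin, cysteine-rich and wall-associated types were weakly expressed. Of 10 G-type lectin kinases, related to the S-locus receptors of self-incompatibility, 2 passed the minimum, and 6 of the 10 had log2 ratios above 0. Cs4g11410 stood at RPKM 1.12 in the control and 1.89 in light drought (0.56), and its neighbour Cs4g11380 at 0.310 and 0.775 (0.66). Cs4g11660, also on chromosome 4, stood at 0.0914 and 0.390, from 8 and 33 reads, with a counting interval from 0.95 to 3.42. Others of this type were lower in light drought, Cs2g07150 at 0.483 and 0.189 (counting interval -2.25 to -0.52) and Cs1g14850 at 0.397 and 0.154 (-2.46 to -0.37), both under the minimum. Of 7 cysteine-rich kinases only Cs4g01430, like CRK35, passed the minimum, at 8.08 and 6.44 (-0.30), and the family ran from -0.50 to 0.39. Of 6 genes with a wall-associated domain or name, 1 passed the minimum and the family split, 3 above and 3 below 0.

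Genes named after LRK10, a wheat kinase at a leaf rust resistance locus, numbered 7 and lay between -0.40 and 0.42. The 2 of these without an annotated wall-associated domain, Cs2g12900 (RPKM 0.740 in the control and 1.16 in light drought) and Cs2g12940 (2.64 and 3.32), had log2 ratios of 0.42 and 0.28. Of 2 L-type lectin kinases 1 passed the minimum, VIII.1 (Cs6g04580), at 2.37 and 1.47 (-0.55). The pair described as FERONIA, which binds RALF peptides in Arabidopsis, stood close to the control level. Orange1.1t02713 was at 5.20 and 4.82 (-0.10) and orange1.1t02715 at 2.86 and 2.47 (-0.18), and both counting intervals included 0.

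The remaining receptor-like kinases included Cs8g06450, like At4g34500, which was at least 2-fold lower. It stood at RPKM 1.50 in the control and 0.464 in light drought, from 107 and 32 reads (log2 ratio -1.05, counting interval -2.31 to -1.11). PERK1 (Cs4g15910), of a proline-rich family thought to sense the wall, stood at 5.33 and 2.97 (-0.75), but its gene model is 297 bases long and the values rest on 52 and 28 reads. PIX7 (Cs4g05530), which a second description calls receptor-like, stood at 4.32 and 2.44 (-0.71). Cs1g17460, like At1g72540, was among the most abundant receptor-like kinases and stood higher, at 6.64 and 9.56 (0.49, counting interval 0.31 to 0.74).

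Among the kinases without an extracellular domain, the lowest ratio of all 132 genes was that of Cs7g04160, described as PBL11 (chromosome 7, 2067701 to 2069773). PBL proteins are receptor-like cytoplasmic kinases, which act just inside the membrane below receptor kinases. Cs7g04160 stood at RPKM 5.05 in the control and 1.25 in light drought, from 225 and 54 reads (log2 ratio -1.66, counting interval -2.47 to -1.58), and shares exon bases with another gene model. PBL7 (Cs7g27930), the most abundant of the 132 in the control, stood at 30.1 and 18.1 (-0.71, counting interval -0.84 to -0.62). The other gene that its descriptions placed in this family here, PIX13 (Cs3g27320), stood at 0.235 and 0.665 under the minimum. PIX7, given above, was classed as receptor-like only by the word receptor. Cs8g12690, a kinase without a name on chromosome 8 (14803324 to 14804905), stood at 23.2 and 9.03, from 1099 and 414 reads, and was lower by the 2-fold rule (-1.31, counting interval -1.53 to -1.20).

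Of 5 kinases with EF-hand calcium-binding domains beside the kinase domain, 4 had log2 ratios above 0 and 3 passed the minimum, a group picked after its values had been seen. Of all 132 kinases, 32.6% lay above 0. The EF-hand kinase below 0 was Cs3g07360, under the minimum at RPKM 0.882 in the control and 0.584 in light drought. Its log2 ratio was -0.35, with a counting interval that included 0. Cs4g10370 (chromosome 4, 7007504 to 7012665), which has no name, stood at RPKM 1.10 in the control and 2.81 in light drought, from 67 and 165 reads. Its log2 ratio of 1.05 (counting interval 0.93 to 1.78) was the highest of the 132 and the only one past 2-fold upward among the other kinases. Cs6g13430 stood at 0.759 and 1.28 (0.50), and 2 genes described as calcium-dependent protein kinase 33, Cs4g10460 and Cs4g10440, had 0.27 and 0.31, with counting intervals that included 0. CBL-interacting kinase 5 (Cs7g06310), of the kinases that calcineurin B-like calcium sensors switch on, stood at 5.17 and 8.89 (0.73, counting interval 0.58 to 0.99). CBL-interacting kinase 4 (Cs9g07340) stood at 3.84 and 2.69 (-0.44).

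The other kinases named here stayed under 2-fold on the log2 ratio with 0.5 added, although the plain RPKM of Aurora-2 and EDR1 differed by more. Aurora-2 (Cs4g18970), a kinase of dividing cells, stood at RPKM 0.452 in the control and 1.12 in light drought, from 20 and 48 reads (log2 ratio 0.77, counting interval 0.53 to 2.14). Cs5g13070 and orange1.1t03798, both without a name, had 0.70 and 0.53. OXI1 (Cs7g16760), a kinase of the response to oxidants in Arabidopsis, stood at 9.68 and 4.91 (-0.91, counting interval -1.18 to -0.77). EDR1 (Cs5g10410), a Raf-like kinase that restrains defence in Arabidopsis, stood at 1.26 and 0.626 (-0.64), and WNK10 (orange1.1t00526) at 3.34 and 1.95 (-0.65). Phototropin-1 (Cs8g17540), a blue light receptor with a kinase domain, stood at 20.4 in the control and, as the most abundant of the 132 there, at 23.8 in light drought (0.22). Cs7g12850, without a name, stood at 17.8 and 23.7 (0.40).

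**Figure D3:**
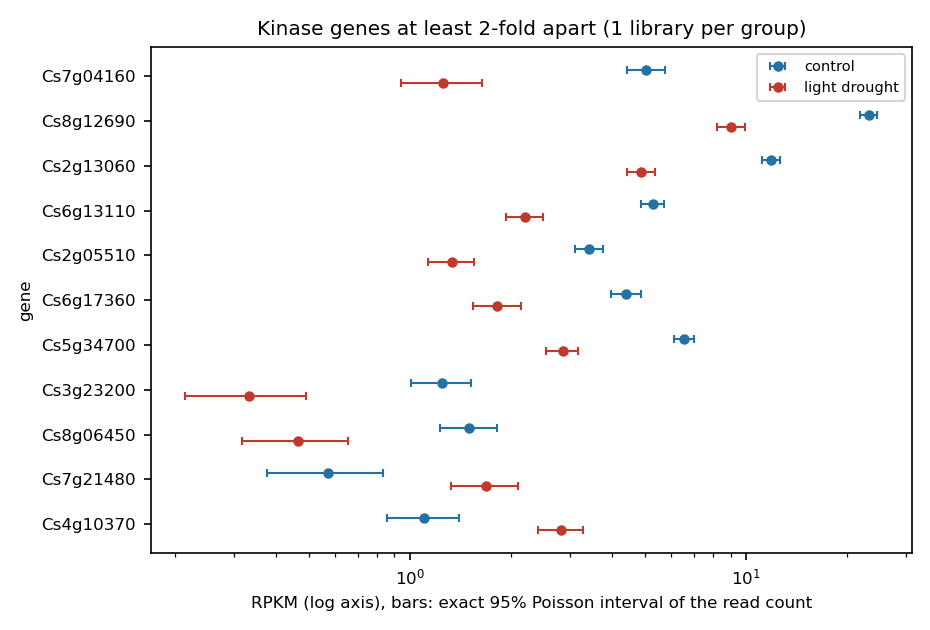
RPKM on a log axis in the control (blue) and light drought (red) library for the 11 kinase genes at least 2-fold apart, with exact 95% Poisson intervals of the read count as bars. Of these, 9 are lower and 2, Cs7g21480 and Cs4g10370, are higher in light drought, and the bars of the 2 libraries overlap for none of the 11.

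The authors' deposited table gives statistics of light drought against control for 45 of the 132 kinases, 33 lower and 12 higher. That is 34.1% of the kinases, against 31.9% of the annotated table in the authors' deposited table (22.7% lower and 9.27% higher). Of the 45, the authors' deposited table has 15 receptor-like kinases lower and 7 higher. The other kinases with an extracellular domain account for 11, none of them higher in the authors' deposited table. All 11 kinases at least 2-fold apart are among the 45, and 23 of the 45 have an RPKM under 1 in both libraries. The smallest absolute log2 fold change of the 45 is 1.00 in the authors' deposited table, which comes from the same 2 libraries. This overlap was therefore largely fixed in advance and is no independent check. The authors' deposited table gives its largest fall among kinases to Cs6g15650, with a log2 fold change of -4.96, a leucine-rich repeat kinase at RPKM 0.875 in the control and 0.0266 in light drought, the latter from 2 reads. Cs4g03600, like At5g57670, was at 0.665 and 0.0344, also from 2 reads in light drought, and has a log2 fold change of -4.19 in the authors' deposited table. Cs9g15380 was at 0.760 and 0.140, with -2.42 in the authors' deposited table. The largest rise among kinases in the authors' deposited table, 2.08, is that of the lectin kinase Cs4g11660.

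Some of these kinase genes lie near each other, with other gene models between them. The share of other genes that would be grouped by the same rule was not computed. Of the 119 on numbered chromosomes, 25 lay in 7 groups of at least 3 kinases with gaps of at most 100 kb, a rule set after the values had been seen. On chromosome 7 (18749203 to 18875557), 3 MIK2-type genes and a related leucine-rich repeat kinase, Cs7g21420 (RPKM 1.24 in the control and 1.79 in light drought), had log2 ratios from 0.40 to 1.03. The 2 other expressed gene models between them had -0.38 and -0.07. On chromosome 4 (7007504 to 7104831), all 3 kinases lay above 0, from 0.27 to 1.05, and the 1 other expressed gene model stood at 0.37.

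On chromosome 2 (9666289 to 9801245), ZAR1 at -1.20 and the leucine-rich repeat kinase Cs2g12860 at -0.72 flanked LRK10-type genes that ran from -0.13 to 0.42, and 9 other expressed gene models there lay between -0.22 and 0.26. On chromosome 5 (24678858 to 24792862), all 3 kinases lay below 0, from -0.95 for Cs5g22170 to -0.13 for Cs5g22210, with SOBIR1 between them in value, and the 1 other expressed gene model there stood at -0.35. In the remaining 3 groups, of lectin, cysteine-rich and LRK10-type kinases on chromosomes 1, 2 and 6, ratios ran from -0.46 to 0.48 with members on either side of 0. None of the other expressed gene models inside the 7 groups was 2-fold apart.

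**Figure D4:**
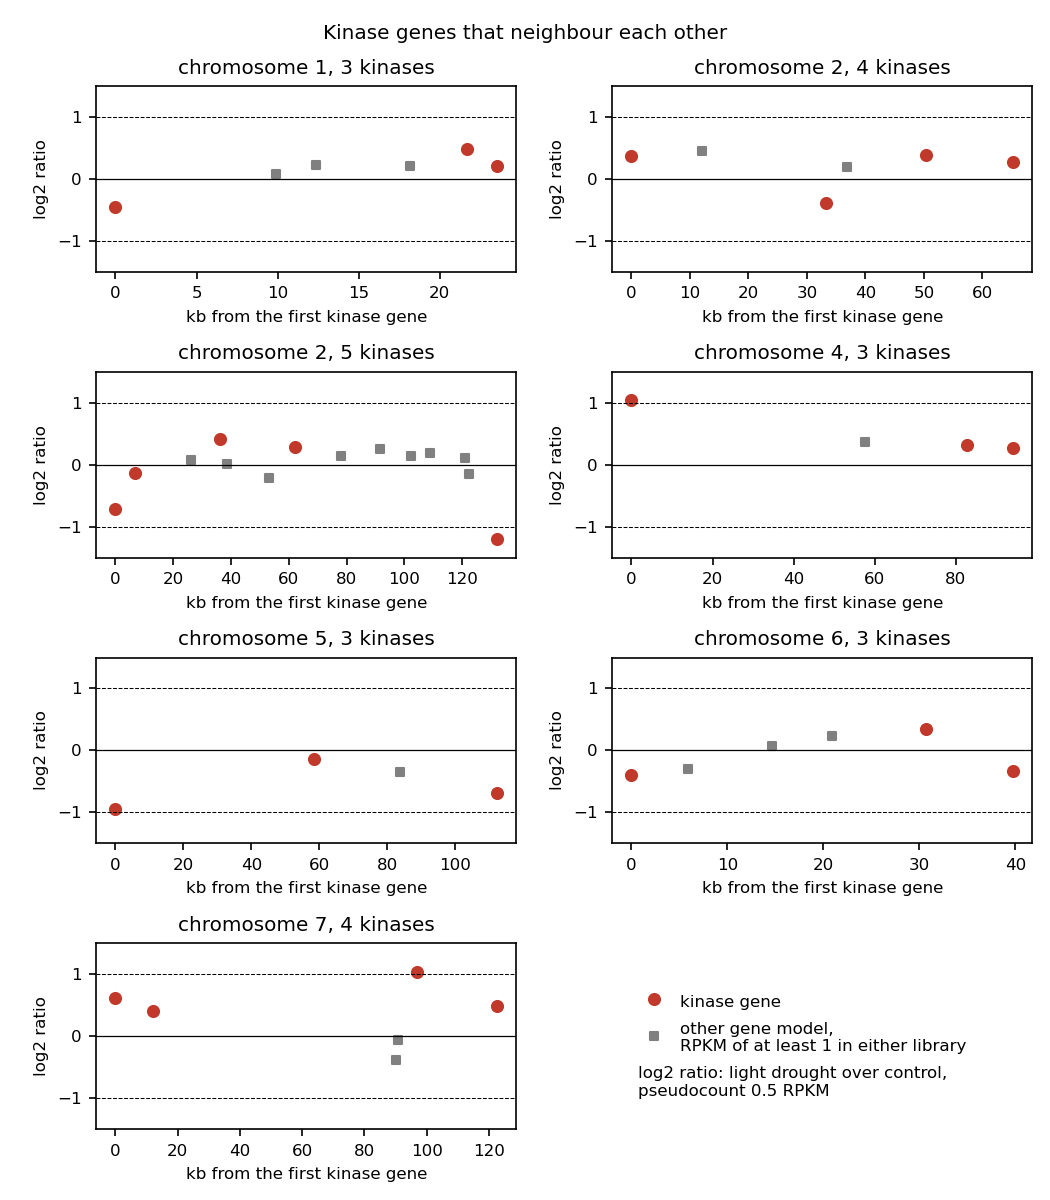
Log2 ratio of kinase genes (red) and of other gene models with an RPKM of at least 1 in either library (grey squares) in the 7 groups of neighbouring kinases, against distance in kb from the start of the first kinase, with dashed lines at 2-fold. All 4 red points in the chromosome 7 group and all 3 in the chromosome 4 group lie above 0, and all 3 in the chromosome 5 group below.

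Genes that act with kinases were matched by name in the annotated table, so members outside it are not counted. Of the genes over the minimum in that table, 14.9% were at least 2-fold lower and 5.99% higher, with a median log2 ratio of -0.23. Over all genes the shares were 2.12% and 0.882%. The lists below are too short to set their shares apart from those of the annotated table. Of 3 peptide signals, which receptor kinases bind, 2 were at least 2-fold lower. RALF-like 34 (Cs1g22550) stood at RPKM 2.10 in the control and 0.445 in light drought (log2 ratio -1.46), phytosulfokine 6 (Cs3g07780) at 7.96 and 3.57 (-1.06), and phytosulfokine 3 (Cs1g21390) at 21.1 and 24.3 (0.19). Of 8 calcium sensors 2 were lower and none higher by the 2-fold rule, with a median of -0.56. CML19 (Cs5g07160) stood at 5.98 and 1.87 (-1.45) and CML41 (Cs1g23590) at 2.47 and 0.737 (-1.26), while calmodulin-like protein 1 (Cs8g05870) stood at 3.56 and 7.13 (0.91).

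Of 5 protein phosphatases 2C, which remove phosphate, 1 was at least 2-fold lower, Cs9g16370, at 1.62 in the control and 0.438 in light drought (-1.17), and the median was -0.31. Of 4 genes described as two-component response regulators or like them, 1 was lower, the regulator-like APRR3 (Cs7g27910), of a family known from the circadian clock, at 3.50 and 1.30 (-1.15). Brassinosteroid pathway genes, respiratory burst oxidases and 14-3-3 proteins were not matched by name.

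Tissue markers were matched by name in the annotated table alone, so markers outside it, including any that did not change, are not counted. In that table the counting interval lay away from 0 for 82.9% of genes over the minimum, against 50.4% of all such genes, so a matched marker was likely to differ. The part of these markers in the kinase results was not tested. All 9 chlorophyll-binding genes, markers of green cortex, had log2 ratios above 0, and their summed RPKM was 130 in the control and 181 in light drought. All 6 fasciclin-like genes of the xylem list had ratios below 0, from -1.36 to -0.14, with sums of 31.8 and 16.8. They were matched by the name of the family, and whether each of them marks xylem was not tested. Cs6g13410, described as fasciclin-like arabinogalactan protein 17, gave the largest part of these sums, at 17.6 and 9.96. Cs6g04310, described as fasciclin-like arabinogalactan protein 11, stood at 1.21 and 1.05 (-0.14), with a counting interval that included 0. Cellulose synthases of secondary walls and laccases were not matched by name in the annotated table. The 3 phloem markers had sums of 4.96 and 5.80 and split, with the sieve element occlusion gene Cs3g07110 at 1.08 and 0.392 (-0.82), another such gene at 0.31 and a lectin gene at 0.43. The 3 genes matched as flower markers were each at least 2-fold lower, with sums of 21.5 and 8.53. The largest part came from Cs6g04120, described as APETALA 2, at 11.5 and 5.03. The others were described as DEFICIENS (Cs1g24860, 2.96 and 0.593) and as a pollen-specific extensin-like protein (Cs1g17860, 6.99 and 2.91). Whether these 3 mark flower tissue in a stem library was not tested. No marker of these lists was at 0 in either library. No root marker was matched in the annotated table.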

How the data were processed

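Libraries of mature stem RNA were made with a stranded mRNA kit, per the labels' protocols, and the submitters' processing notes list Trimmomatic 0.36. The aligner, the counter, the strand setting, any removal of duplicate reads and the genome build are not stated in the sources used here. RPKM values were deposited by the authors for 23159 genes, and multiplied by exon length they gave whole reads within 0.01 read for 100% of values. Gene length in bases is another deposited column. For some genes the p-value, the false discovery rate (also a q-value) and the log2 fold change were deposited by the authors, by a test that is not stated. Each group has 1 library, so the design allowed no test. Log2 ratios, counts and medians were computed with Python 3.11.15, numpy 2.4.6, scipy 1.17.1 and pandas 2.3.3 and tested on simulated data. Figures were drawn with matplotlib 3.10.9. Since duplicate reads may remain, intervals and floors cover counting error only. At the median kinase length, a floor of 3 reads equals 0.0346 RPKM for the control library and 0.0358 for light drought.

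Members and lists were chosen with earlier results of these data known. Families were set by names and Pfam domains, and 1 kinase gene is not reported here. Genes named were the 10 largest rises and falls of receptor-like kinases and 6 of other kinases over the minimum, the 3 most abundant of each class, up to 2 per family with 3 kept members and per list of other signalling genes, and 3 under the minimum from the authors' deposited table. Others, such as FERONIA, HAIKU2, OXI1 and the neighbouring genes, were named outside this rule after values were seen. Of the gene identifiers, 0 matched a reference table, which was set aside. Alternatives were other pseudocounts, minimums, thresholds, scalings and classes.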

Additional observations from a re-analysis of the deposited data

How the results depend on the processing

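No paired analysis was possible because neither arm has more than 1 library, and none could be left out for the same reason. Counts and medians both depend on the settings. Of 11 kinases 2-fold apart (receptor-like 1 higher and 3 lower, other 1 higher and 6 lower), a pseudocount of 0.1 gave 18, with 3 higher and 6 lower receptor-like and 2 higher other kinases. A pseudocount of 1 gave 3, with 0 and 1 receptor-like and 0 and 2 other kinases. A minimum RPKM of 5 gave 5, with 0 higher and 1 lower receptor-like and 0 higher other kinases, among fewer genes. Counting from 1.5-fold gave 35, with 4 and 11 receptor-like and 5 and 15 other kinases, and from 4-fold gave 0 in every class. Classes from Pfam domains gave 6 lower kinases with an extracellular domain and 3 lower without, and counting only genes described as a kinase gave 6, which leaves out members with no name. The rescalings, the absence of a minimum and classes from the RefSeq name alone, which was added after seeing the data, left the counts within 1.5 times. Medians stayed below 0 under each setting run, from -0.47 to -0.16 for receptor-like and from -0.49 to -0.30 for other kinases, with the values nearest 0 for receptor-like kinases when no minimum was set. No kinase named by the rule changed sign under the pseudocounts and scalings run. At a false discovery rate of at most 0.05, also added later, 40 of the 45 kinases remain in the authors' deposited table. Depth limits Cs6g15650 and Cs4g03600 most, with 2 light drought reads each.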
